A study of Drosophila melanogaster with 6 samples.

Results

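The genes described are elav (FBgn0260400), fne (FBgn0086675) and Rbp9 (FBgn0010263), which encode the ELAV family of RNA-binding proteins of Drosophila melanogaster. They were taken by name, with earlier results of these data known, and are 3 of the 14869 genes counted. All 3 passed the filter on low counts that left 10029 genes for testing. Poly(A) RNA had been sequenced from tissues of male L3 larvae at the wandering stage kept at 25 °C, in 6 libraries of 3 groups with 2 biological replicates each. The first group was central brain dissected without the ventral nerve cord. The second was fat body of larvae fed food with 25 µM 4-hydroxytamoxifen (4-HT), and the third was fat body of larvae on the same food without 4-HT, called control fat body here. The brain larvae, like those of the control fat body, had received no 4-HT. A brain library held tissue of 30 larvae and a fat body library that of 18.

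Per the protocols, every library of every group, controls included, was an equal mix of 6 transgenic lines on a y,w background, although the titles of the brain and control fat body libraries carry the tag wt. Each line carried at ZH51C a Dam methyltransferase gene behind an hsp70 promoter (hsp70P), interrupted at L127C by an intein that depends on 4-HT. The Dam was either alone or fused to PC, H1, HP1, MRG15 or BRM, which are chromatin proteins, so neither a single line nor a larva without the transgene can be read from these libraries. The brain against control fat body addresses how the tissues differ, and the 4-HT against control fat body whether feeding the inducer altered transcript levels.

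ELAV proteins bind uridine-rich and adenosine-uridine-rich stretches of RNA through RNA recognition motifs and act on alternative splicing, on the choice of polyadenylation site and on mRNA stability. ELAV itself is a nuclear protein of neurons, widely used to mark them, and is required for neuron-specific splice forms and for the long 3′ UTRs of neuronal mRNAs. FNE, found in neurons, is largely cytoplasmic and can take over ELAV's nuclear work through an alternative splice form. RBP9 is known from the nervous system and from the female germ line, where it is required for the differentiation of germ cells. The relatives of these proteins in vertebrates are the Hu proteins.

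Brain libraries totalled 20687696 and 26530280 counts, 4-HT fat body libraries 47054569 and 65802288, and control fat body libraries 25860088 and 50905534. Levels are given as CPM, counts relative to library size scaled by TMM, a method that corrects library sizes for a few very abundant genes. After scaling, 1 count was worth 0.0168 and 0.0124 CPM in brain, 0.0368 and 0.0247 CPM in 4-HT fat body, and 0.0660 and 0.0359 CPM in control fat body. The tissue labels were checked against marker lists: 10 of 10 fat body genes were lower in brain than in control fat body, and 9 of 9 genes of neurotransmitter synthesis and transport were higher. Control fat body replicate 1 and, at a lower level, brain replicate 1 stood apart in carrying salivary gland transcripts. Without fkh, a transcription factor gene at 40.3 and 41.1 CPM in brain, the summed level of 11 salivary gland genes was 70.2 CPM in brain replicate 1 and 0.767 CPM in brain replicate 2. The same sum was 3.09 and 2.99 CPM in the 4-HT libraries, against 1997 CPM in control replicate 1 and 2.62 CPM in control replicate 2. The fold changes of the 3 genes are therefore also given without these libraries, and the list counts without control replicate 1 where they move.

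All 3 genes were higher in brain than in control fat body. The differences were 116-fold for elav, 272-fold for fne and 12.5-fold for Rbp9 (edgeR quasi-likelihood test with Benjamini-Hochberg adjustment over all genes tested). This was a contrast in which 70.0% of the tested genes were called in either direction, 35.5% were called higher in brain, and 86.5% had libraries of the 2 groups that did not overlap, so that 3 of 3 members called carries little by itself. By log2 fold change fne stood 109th and elav 338th from the top of the 10029 genes, and Rbp9 1338th. In bulk tissue, fewer cells of a type and less RNA per cell cannot be told apart.

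The transcript of elav had 12141 and 19843 counts in the brain libraries, or 204 and 245 CPM. It had 62 and 48 counts in 4-HT fat body (2.28 and 1.19 CPM), against 17 and 72 counts in control fat body (1.12 and 2.58 CPM). Both brain libraries thus lay far above all 4 fat body libraries, while the control replicates differed from each other 2.30-fold. The log2 fold change of brain over control fat body was 6.86 (SE 0.51, 95% interval 5.64 to 8.08, adjusted p = 4.33e-05, edgeR). It was 6.47 without control replicate 1 and 7.04 without brain replicate 1. Without control replicate 2, the control library with the higher elav level, it was 7.65, or 201-fold.

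The transcript of fne had 8883 and 12450 counts in brain, or 149 and 154 CPM, the closest agreement between replicates of any of the 3 genes in any group. It had 6 and 1 counts in 4-HT fat body (0.221 and 0.0247 CPM), against 12 and 11 counts in control fat body (0.792 and 0.395 CPM). With so few counts, the exact 95% Poisson interval of the lowest library, 4-HT replicate 2, ran from 0.000626 to 0.138 CPM. Such intervals come from the count of 1 library and cover counting error only, not the spread between libraries. They may be too narrow even for that error, since PCR copies carried no molecular identifiers. The brain libraries lay above every fat body library, with a log2 fold change over control fat body of 8.09 (SE 0.53, 95% interval 6.81 to 9.37, adjusted p = 2.67e-05, edgeR), 8.60 without control replicate 1 and 8.15 without brain replicate 1.

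The transcript of Rbp9 had 466 and 781 counts in brain, or 7.82 and 9.66 CPM. It had 12 and 14 counts in 4-HT fat body (0.441 and 0.346 CPM), against 15 and 13 counts in control fat body (0.990 and 0.467 CPM). Brain was again above all fat body libraries, by a log2 fold change over control fat body of 3.65 (SE 0.41, 95% interval 2.67 to 4.63, adjusted p = 2.77e-04, edgeR). Without control replicate 1 it was 4.25, or 19.0-fold, and without brain replicate 1 it was 3.81. The interval of Rbp9 overlapped neither that of elav nor that of fne, whose intervals overlapped each other. A test of the differences between the genes was not made.

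**Figure D1:**
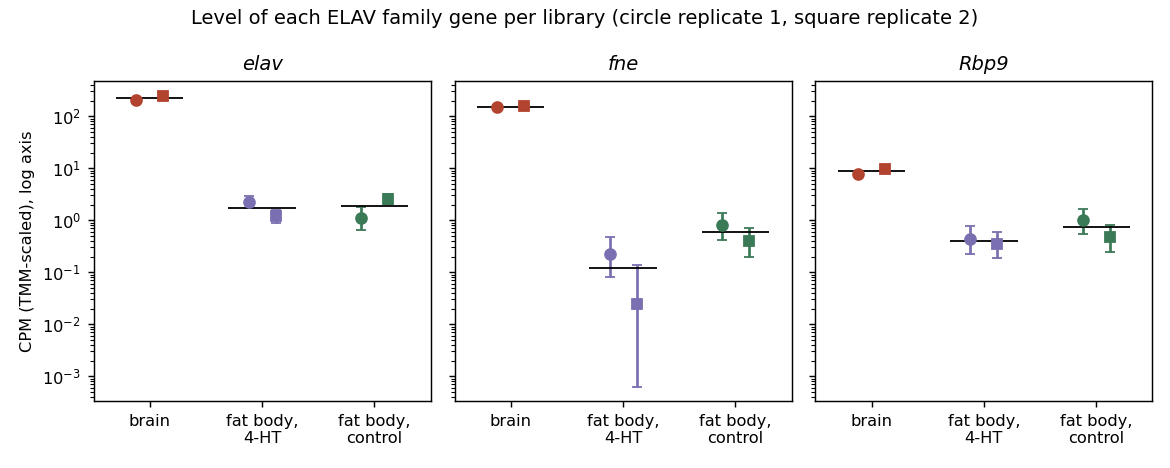
Level of elav, fne and Rbp9 in each library in TMM-scaled CPM on a log axis, for brain, 4-HT fat body and control fat body. Circles are replicate 1, squares replicate 2, vertical bars exact 95% Poisson intervals (counting error only) and horizontal lines group means. The brain libraries lie above the fat body libraries for every gene, and fne in 4-HT replicate 2 rests on 1 count.

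The folds depend on how libraries are scaled, because the tissues differ in how much of a library a few genes take. With library size alone the log2 fold changes of brain over control fat body were 9.26 for elav, 10.48 for fne and 6.05 for Rbp9, but the median of all tested genes was then 2.49, against 0.11 with TMM. Relative to that median, the values were 6.78, 7.99 and 3.57 with library size alone and 6.76, 7.98 and 3.54 with TMM. By library size alone 8757 genes were called, 7574 of them higher in brain, where TMM gave 7018, 3558 of them higher. In the authors' deposited table the brain over control fat body folds were 123 for elav, 269 for fne and 12.6 for Rbp9, with adjusted p of 1.42e-65, 3.62e-74 and 1.37e-09.

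To compare the genes with each other, CPM was divided by the length of each gene's merged exons, which is 10715 bases for elav, 9561 for fne and 8054 for Rbp9 in Ensembl's annotation of the later BDGP6 assembly. On this scale brain had 19.0 and 22.9 CPM per kb of elav, 15.6 and 16.1 of fne, and 0.971 and 1.20 of Rbp9. The order elav, fne, Rbp9 held in both brain libraries, without overlap between neighbours. When coding length alone was used, brain had 155 ± 20.3 CPM per kb of elav and 136 ± 3.12 of fne (SD, n = 2), a gap smaller than the replicate SD of elav. Among the tested genes that had an exon length, elav lay at percentiles 87.1 and 90.9 per kb of exon in the brain libraries, fne at 83.5 and 85.3, and Rbp9 at 26.5 and 27.6.

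In fat body the order of the genes depended on the group and on the length used. The 4-HT libraries had 0.213 and 0.111 CPM per kb of exon for elav, 0.0548 and 0.0430 for Rbp9, and 0.0231 and 0.00259 for fne, with no overlap between neighbours. Per kb of coding sequence the same libraries had 0.214 and 0.168 CPM of Rbp9 and 0.198 and 0.0222 CPM of fne, ranges that overlapped. In the control libraries elav had 0.105 and 0.241, Rbp9 0.123 and 0.0579, and fne 0.0828 and 0.0413 CPM per kb, and each neighbour in that order overlapped the next. Per kb of coding sequence the control libraries had 0.712 and 0.355 CPM of fne and 0.479 and 0.226 CPM of Rbp9, so that fne was then above Rbp9 in both, as in brain, with ranges that still overlapped. Set against each gene's brain mean, elav stood at 1.02% and 0.528% in the 4-HT libraries and at 0.499% and 1.15% in the control libraries. The same quantity was 0.146% and 0.0163% (4-HT) and 0.523% and 0.260% (control) for fne, and 5.05% and 3.96% (4-HT) and 11.3% and 5.34% (control) for Rbp9. As means of 2 libraries, elav stood at 0.772% with 4-HT and 0.825% in controls, fne at 0.0810% with 4-HT and 0.391% in controls, and Rbp9 at 4.50% with 4-HT and 8.33% in controls. Without 4-HT replicate 1 the value of fne was that of the other library, 0.0163%.

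The make-up of the family was described by each gene's share of the summed counts of the 3 genes. In brain elav gave 56.5% and 60.0% of those counts, fne 41.3% and 37.6%, and Rbp9 2.17% and 2.36%. In 4-HT fat body elav gave 77.5% and 76.2%, fne 7.50% and 1.59%, and Rbp9 15.0% and 22.2%, of only 80 and 63 counts. In control fat body elav gave 38.6% and 75.0%, fne 27.3% and 11.5%, and Rbp9 34.1% and 13.5%, of 44 and 96 counts. The share of fne was at least 37.6% in brain and at most 27.3% in fat body, while that of Rbp9 was at most 2.36% in brain and at least 13.5% in fat body. The share of elav in control replicate 1 had an exact 95% interval (Clopper-Pearson) of 24.4% to 54.5%, and that in control replicate 2 one of 65.1% to 83.3%. The shares are given as a description, with no test.

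**Figure D2:**
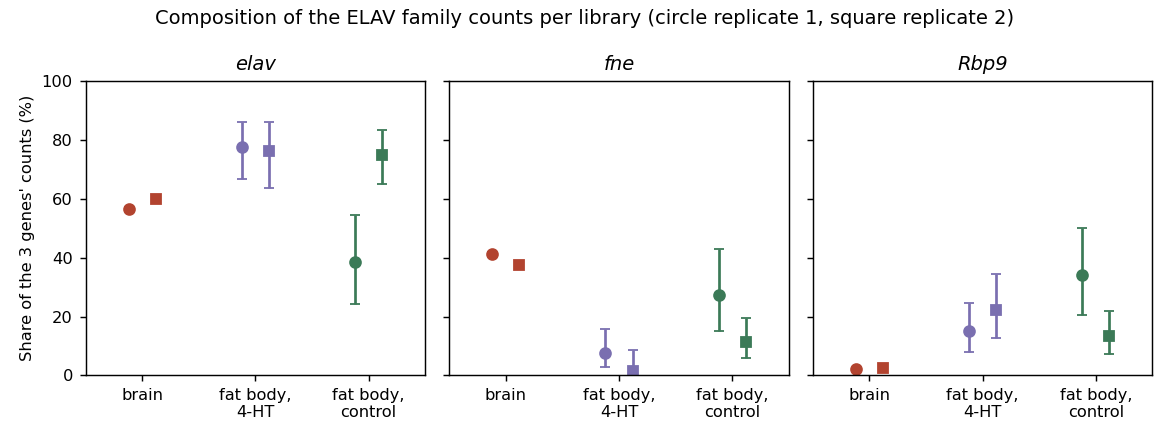
Share of elav, fne and Rbp9 in the summed counts of the 3 genes, in percent, per library of brain, 4-HT fat body and control fat body. Circles are replicate 1, squares replicate 2 and bars exact 95% Clopper-Pearson intervals (counting error only). Rbp9 gives 2.17% and 2.36% in brain and at least 13.5% in each fat body library.

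Some of the reads may belong to neighbours. In the BDGP6 annotation elav, on chromosome X, shares 673 exon bases (6.28% of its exon length) with arg on the opposite strand, where arg encodes arginase. It shares 2994 bases (27.9%) with the same-strand long noncoding RNA lncRNA:enrr, which has no row of its own among the counts. Rbp9, on chromosome arm 2L, shares 142 bases (1.76%) with Ts on the opposite strand, the gene of thymidylate synthase, and fne, on chromosome X, shares none. The library kit does not mark strand, so reads of such stretches cannot be told apart. These neighbours, named after their values were seen, did not move alike: arg had 2.75 and 3.22 CPM in brain, 17.1 and 50.9 CPM in 4-HT fat body, and 52.3 and 27.3 CPM in control fat body. Between the control replicates arg was thus higher in replicate 1, where elav was lower. For Ts the levels were 18.4 and 15.2 CPM in brain, 0.662 and 0.816 CPM in 4-HT fat body, and 1.78 and 1.26 CPM in control fat body, an order of the groups like that of Rbp9, with a log2 fold change of brain over control fat body of 3.49 (adjusted p = 4.93e-05, edgeR). The part of these neighbours in the counts of elav and Rbp9 was not tested.

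The low fat body counts were set beside those of other neuronal genes. Of 18 pan-neuronal genes 17 were higher in brain than in control fat body and 1 was lower, with a median log2 fold change of 6.32, against 0.11 over all genes tested. Of these 18, 5 had a larger log2 fold change than elav, 2 a larger one than fne and 12 a larger one than Rbp9. The largest were nSyb, a synaptic vesicle fusion protein (9.79), Appl, the fly relative of the amyloid precursor protein (8.30), and jeb, a secreted ligand (7.99). The exception was Syt1, a calcium sensor of synaptic vesicles, with 94.8 ± 20.2 CPM in brain, 647 ± 56.7 CPM in 4-HT fat body and 578 ± 42.2 CPM in control fat body (SD, n = 2 each). It fell by 2.61 on the log2 scale in brain relative to control fat body (adjusted p = 1.00e-04, edgeR). The summed level of the 18 pan-neuronal genes was 1742 and 2712 CPM in brain, 864 and 752 CPM in 4-HT fat body, and 687 and 814 CPM in control fat body. Of that sum Syt1 alone gave 80.5 and 109 CPM in brain, 687 and 607 CPM in 4-HT fat body, and 549 and 608 CPM in control fat body.

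Neurotransmitter genes were higher in brain in 9 of 9 cases (median log2 fold change 6.41). Their leading members were VGlut (8.80), VGAT (8.52) and Vmat (7.89), the vesicle transporters of glutamate, of GABA and of monoamines. Their summed level was 234 and 243 CPM in brain, 2.06 and 1.41 CPM in 4-HT fat body, and 1.65 and 1.61 CPM in control fat body. Fat body thus carried traces of these transcripts too, at a median of 1.17% (4-HT) and 1.31% (control) of the brain level. The 9 genes ranged widely, from 0.101% to 10.3% with 4-HT and from 0.212% to 16.4% in controls. Of them, 3 stood below elav in each group, while 0 (4-HT) and 2 (control) stood below fne. Over the 9 neurotransmitter genes the median was 5 and 3 counts in the 4-HT libraries and 3 and 5 counts in the controls, and over the 18 pan-neuronal genes it was 28.5 and 27.5 counts with 4-HT and 14 and 32.5 counts in the controls. At 0 were VGAT, SerT and nSyb in 4-HT replicate 2 and ple and Frq1 in control replicate 2. Others were counted in every fat body library, such as futsch, a microtubule-associated protein, with 63 and 59 counts with 4-HT and 27 and 56 counts in the controls, and brp, an active zone protein, with 86 and 7 counts with 4-HT and 13 and 20 counts in the controls. The part of neurons carried along in the dissections was not tested.

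Neuroblasts are the dividing stem cells of the brain, which ELAV protein does not mark. Of 12 neuroblast and progenitor genes 12 were higher in brain (median log2 fold change 7.27), among them wor (8.21), which encodes a transcription factor, and pros (7.80), a homeodomain protein of neuroblast daughters. Fat body held these 12 genes at a median of 0.404% (4-HT) and 0.671% (control) of the brain level, where elav was at 0.772% and 0.825%. Of 11 glial genes tested 6 were higher, 2 lower and 3 not called, with a median of 1.81. The lower genes were Tret1-1, a trehalose transporter, at -7.03, with 10.6 and 12.4 CPM in brain, 1588 and 1704 CPM in 4-HT fat body, and 1340 and 1678 CPM in control fat body, and Eaat1, a glutamate transporter, at -1.93. The glial transcription factor gene repo was at 33.8 and 37.8 CPM in brain, 0.184 and 0.124 CPM in 4-HT fat body, and 0.462 and 0.179 CPM in control fat body, a difference between brain and control fat body of 6.94 on the log2 scale (adjusted p = 1.15e-05, edgeR). Among lists for other tissues, brain was higher than control fat body in 4 of 5 imaginal disc genes, 4 of 4 ring gland genes, 3 of 8 testis and germ line genes, 1 of 9 salivary gland genes and 1 of 4 tracheal genes, with 0 lower. It was lower in 7 of 9 hemocyte genes and 6 of 8 muscle genes, with 0 higher, and of 3 gut and Malpighian tubule genes 1 was higher and 1 lower. Over all 10029 tested genes 35.5% were called higher in brain and 70.0% in either direction. Counts near those shares carry little by themselves. The 5 ring gland genes in the counts summed to only 10.7 and 4.32 CPM in brain. Without control replicate 1 the hemocyte count was 1 higher and 6 lower and the tracheal count 2 higher. Also without it, 15 of the 18 pan-neuronal genes were called higher, the calls of brp and Syx1A being lost, and the log2 fold changes of wor and repo were 9.91 and 7.65.

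**Figure D3:**
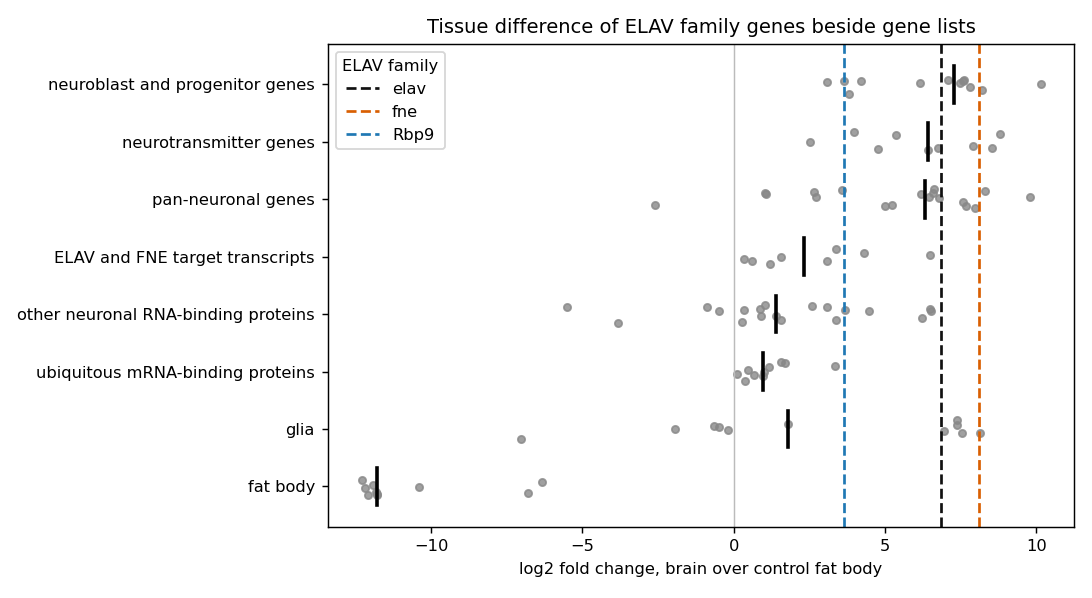
Log2 fold change of brain over control fat body for each tested gene (points) of 8 lists, with list medians as short vertical bars and elav, fne and Rbp9 as dashed lines at 6.86, 8.09 and 3.65. The pan-neuronal, neurotransmitter and neuroblast medians lie between 6.32 and 7.27, and the ubiquitous mRNA-binding proteins have a median of 0.98.

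Other RNA-binding proteins were less uniform. Of 19 genes of RNA-binding proteins known from neurons 13 were higher in brain, 3 lower and 3 not called, with a median log2 fold change of 1.40. The largest differences were those of msi (6.50), a translational regulator of neural precursors, Adar (6.48), the RNA editing enzyme, and Rbp6 (6.21), a relative of msi. With all 6 libraries, none of the 19 had a larger log2 fold change than elav or fne, and 5 had a larger one than Rbp9. Without control replicate 1 this held for fne, at 8.60, but not for elav, which at 6.47 was below msi. Without control replicate 1, 11 were higher, 3 lower, and msi stood at 7.11. The lower genes were Hrb27C, of a nuclear RNA-binding protein, at -0.87 and, named after their values were seen, the splicing regulator genes fus at -5.52 and ps at -3.82. For fus the levels were 3.84 and 3.80 CPM in brain, 184 and 153 CPM in 4-HT fat body, and 162 and 188 CPM in control fat body. Of 10 genes of RNA-binding proteins found in most cells 8 were higher in brain and 0 lower, with a median of 0.98, led by the splicing factor gene x16 (3.33). Fat body held these genes at a median of 49.7% (4-HT) and 50.8% (control) of the brain level. The related gene ssx, a paralog of the sex determination gene Sex-lethal, was at 129 and 115.5 CPM in brain, 60.4 and 56.1 CPM in 4-HT fat body, and 49.8 and 58.7 CPM in control fat body, a difference between brain and control fat body of 1.17 on the log2 scale (adjusted p = 0.00117, edgeR).

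Transcripts that ELAV or FNE are known to bind or process were present in both tissues. Of 8 such genes 6 were higher in brain than in control fat body and 0 lower, with a median log2 fold change of 2.33. They were Adar (6.48), Dscam1 (4.31), a neuronal recognition receptor, pum (3.36) and brat (3.08), both translational repressors, ewg (1.57), a transcription factor whose splicing ELAV controls, and arm (1.20), the fly beta-catenin. The other genes were shep, an RNA-binding protein, at 0.33 (adjusted p = 0.397, edgeR) and mei-P26, a relative of brat, at 0.61 (adjusted p = 0.490). The lists share members: Adar, shep, pum and brat are also among the RNA-binding proteins known from neurons, and brat among the neuroblast genes. Nrg, AGO1, nej and Imp, also chosen as targets, matched no identifier in the counts. Fat body held these 8 transcripts at a median of 25.9% (4-HT) and 22.7% (control) of the brain level, where the mean of elav itself was 0.772% (4-HT) and 0.825% (control). As an example, arm had 495 and 454 CPM in brain, 214 and 196 CPM in 4-HT fat body, and 195 and 217 CPM in control fat body. The counts are per gene, so splice forms and 3′ UTR lengths, on which ELAV acts, cannot be read from them.

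RBP9 is known to bind the transcripts of bam, in the female germ line, and of emc, and bgcn encodes the partner of BAM. Of these 3 genes emc, which encodes an inhibitor of transcription factors, was called higher, with 169 and 168 CPM in brain, 36.3 and 33.8 CPM in 4-HT fat body, and 27.5 and 31.3 CPM in control fat body, a log2 fold change over control fat body of 2.52 (adjusted p = 3.31e-05, edgeR). The germ line gene bam was at or below 0.252 CPM in every library and bgcn at or below 0.528 CPM. Their log2 fold changes were 1.39 (adjusted p = 0.388) and -0.50 (adjusted p = 0.523). A list of 11 testis and germ line genes summed to 15.1 and 18.2 CPM in brain, 6.77 and 4.23 CPM in 4-HT fat body, and 6.60 and 5.63 CPM in control fat body. Beside the fat body counts of Rbp9, the part of germ line cells was not tested.

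With 4-HT, none of the 3 genes was called in fat body by edgeR, in a contrast where 0.0% of the tested genes were called, 596 of 10029 passed an unadjusted p of 0.05 and DESeq2 called 44 over all genes. For elav the log2 fold change of 4-HT over control fat body was -0.18 (SE 0.45, 95% interval -1.27 to 0.92, adjusted p = 0.994, edgeR), and the groups overlapped. Its sign rested on single libraries, since it was 0.61 without control replicate 2 and 0.24 without 4-HT replicate 2.

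The fne groups did not overlap, with 0.221 and 0.0247 CPM in 4-HT fat body, against 0.792 and 0.395 CPM in control fat body. The log2 fold change was -2.35 (SE 0.74, 95% interval -4.14 to -0.56, unadjusted p = 0.0177, adjusted p = 0.835, edgeR), and DESeq2 gave -2.38 with an adjusted p of 0.0923. This rested on 7 counts in the 4-HT libraries and 23 in the controls. It was -4.33 without 4-HT replicate 1, -1.32 without 4-HT replicate 2, -1.88 without control replicate 1 and -2.86 without control replicate 2. Rbp9 did not overlap between the groups either, at -0.83 (SE 0.45, 95% interval -1.91 to 0.25, adjusted p = 0.866, edgeR) and -0.26 without control replicate 1. Libraries of the 2 groups failed to overlap for 30.0% of all tested genes, and with 3 genes, 2 that did so give no result about the family. In the authors' deposited table the 4-HT over control folds were 0.932 for elav, 0.209 for fne and 0.545 for Rbp9, each with an adjusted p of 1.

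**Figure D4:**
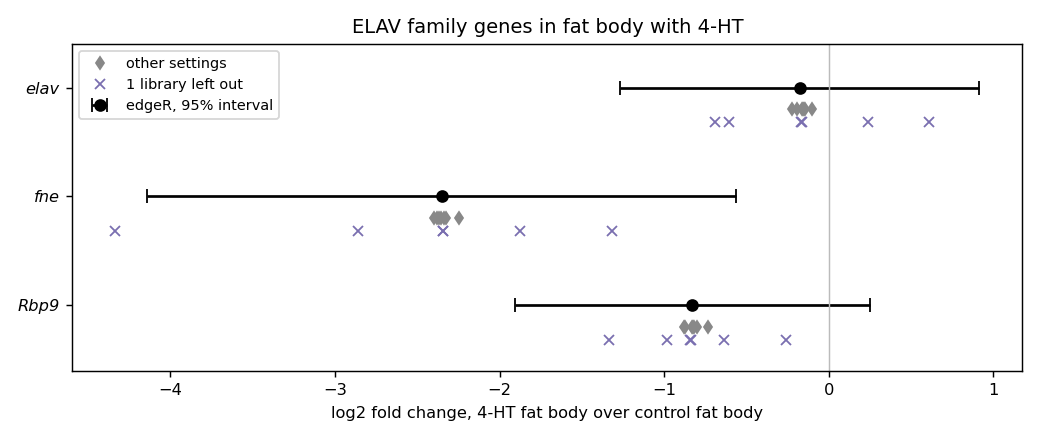
Log2 fold change of 4-HT over control fat body for elav, fne and Rbp9, with the edgeR estimate and its 95% interval (circle and bar), the values under other settings (diamonds) and with 1 library left out (crosses). The interval of fne, -4.14 to -0.56, lies below 0 before adjustment, and elav takes both signs when single libraries are left out.

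With no gene called by the main edgeR fit between 4-HT and control fat body, no list member could be called either. Lists were not tested as sets. The 18 pan-neuronal genes had a median log2 fold change of -0.15, the 9 neurotransmitter genes -0.33, the 12 neuroblast and progenitor genes -0.69 and the 8 ELAV and FNE targets 0.11, against 0.01 over all genes tested. The smallest unadjusted p in the first 3 of these lists belonged to Syn, a synaptic vesicle protein, at -0.64, Vmat at 1.22 and mira, an adaptor protein of neuroblasts, at -0.86, with adjusted p of 0.837, 0.835 and 0.835 (edgeR). Every one of the 39 genes in the first 3 lists had a log2 fold change above that of fne. This carries little by itself, since fne stood 9783rd from the top of the 10029 genes tested. Nearly all tested genes thus lay above fne, whatever their list.

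Taken over the 6 libraries, the pattern of each gene was compared with that of 9136 other genes, by the root mean square difference of centred log2 CPM with a prior count of 2. Nearest to elav were CG34370 (0.156), side-II (0.192), which encodes a cell surface protein of the immunoglobulin superfamily, and GC (0.200). Nearest to fne were GstZ2 (0.121), a glutathione transferase gene, loaf (0.335) and eEF1alpha2 (0.434), which encodes a translation elongation factor. GstZ2 had the same counts as fne in the 4-HT libraries, 6 and 1, and 13 and 10 counts in the controls. Nearest to Rbp9 were CG15822 (0.179), CG17378 (0.198) and Lerp (0.212), which encodes a lysosomal sorting receptor. None of the family was among the 3 nearest of another: fne came 799th and Rbp9 938th from elav, at 1.44 and 1.61, while elav came 206th and Rbp9 839th from fne. These distances describe 6 libraries, and in fat body they rest on few counts.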

How the data were processed

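The deposited counts of 6 libraries (3 groups of 2 biological replicates) are unscaled whole numbers, 1 per FlyBase gene. The deposited comparison tables hold, per the file headers, a signal (the authors' mean of counts divided by size factors), a ratio or fold change of the authors' means, its log2, and a p-value, raw and adjusted. Per the submitters' processing notes, TopHat, HTSeq and DESeq were used with genome build dm3. How reads were assigned, on which strand and with which annotation is not given in the sources used here.

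Of 14869 identifiers 13524 matched a symbol in the gene tables, all 3 family genes among them, and of 193 list genes in 18 lists 161 matched and 145 were tested; the other 32 are not analysed here. Exon lengths and overlaps came from Ensembl's BDGP6 annotation, which is not the build of the counts, so no coordinates are given. The family genes and the lists were chosen with earlier results of these data known.

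Genes kept by filterByExpr entered edgeR 4.0.16 under R 4.3.3 (TMM, robust estimateDisp and glmQLFit, glmQLFTest) with a group term over all 6 libraries. The threshold was 0.05 for the Benjamini-Hochberg adjusted p. Both comparisons share the control libraries. The alternatives were RLE, upper quartile and library size scaling, no filter, DESeq2 1.42.0, only the groups compared, a replicate block, and each library left out, which assumes that the lone sample left varies as the others do. The scripts were tested on simulated data. The changes set there were smaller than those of elav and fne in brain, and lay in genes of higher control fat body level.

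Genes named were the family, all members of the 3 lists on related genes, targets and partners, up to 3 called genes of largest change (or that of smallest p) and the 2 most abundant of each other list, and the 3 nearest profiles. The text leaves some out. Genes outside this rule (arg, Ts, fus, ps, repo, brp, futsch, Syx1A, Frq1, Snap25, SerT, ple) were chosen after their values were seen. Depth limits the fat body values, where each family gene had 1 to 72 counts.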

Additional observations from a re-analysis of the deposited data

How the results depend on the processing

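Brain over control fat body was called higher for all 3 genes in each of 13 alternatives, with log2 fold changes of 6.47 to 9.26 for elav, 7.59 to 10.48 for fne and 3.15 to 6.05 for Rbp9 and adjusted p of at most 7.34e-04, 5.85e-04 and 0.00531. The 4-HT difference of elav changed sign without control replicate 2 (0.61) and without 4-HT replicate 2 (0.24), with a range of -0.69 to 0.61 when a library was left out, and no alternative called any of the 3 genes. Genes called with 4-HT numbered 0 by edgeR, 2 with no filter on low counts and 44 with DESeq2, and 0 to 38 with a library left out (38 without 4-HT replicate 2, 20 without 4-HT replicate 1, 5 without either control replicate); the cause was not tested. DESeq2 called 3 list genes with 4-HT, where edgeR called 0. Of the list counts for brain, those of tissue lists moved most: gut genes lower in 5 of 13 settings (0 to 3), tracheal genes higher in 4 (2 to 4), hemocyte genes higher in 3 (1 to 2) and salivary gland genes lower in 2 (1 to 2). Divided by exon length, the mean share of elav was 55.2% in brain and 72.0% in 4-HT fat body, and that of Rbp9 2.86% in brain. With a replicate block the brain log2 fold changes were 6.88, 8.10 and 3.68 and the genes called 6658 for brain and 0 for 4-HT, with no call of the 3 genes changed. The labels do not pair the numbers, and deviations from the group means correlated at 0.19 between brain and control, -0.09 between brain and 4-HT, and -0.14 between 4-HT and control. Depth limits the fat body values.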
